A study of Mus musculus with 9 samples.

Results

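The core circadian clock loop is described here through 10 genes of mouse liver, of 34745 genes in the deposited table. They are the activators Arntl, Clock and Npas2, the repressors Cry1, Cry2, Per1, Per2 and Per3, and the nuclear receptors Nr1d1 and Nr1d2. The genes were chosen by symbol, from a list drawn up with earlier fold changes of these same libraries in view. Their levels and tests are therefore given as a description and are no independent support for a change of the clock. Every one of the 10 was found in 1 row, and all 10 passed the filter on low counts, which 14134 genes passed in all. Npas2 passed it through the libraries labelled KO alone, where its counts are high. That filter favours a higher level in KO for Npas2, so its tests against KO and its place in the counts below are description only.

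The clock is a feedback loop of transcription that runs through a cycle of about a day in nearly every cell. ARNTL (also called BMAL1) pairs with CLOCK or its relative NPAS2 and switches on genes that carry an E-box, among them the Per, Cry and Nr1d genes. PER and CRY proteins return to the nucleus and block that pair, while NR1D1 and NR1D2 (the REV-ERB receptors) repress Arntl, Npas2, Clock and Cry1 through a sequence that ROR receptors use to activate them. In mouse liver, Arntl and Npas2 therefore peak at a time of day when Nr1d1 is at its lowest, and the loop drives the daily rhythm of sugar, lipid and bile acid metabolism.

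Messenger RNA of 9 liver samples of 12-week-old C57BL/6 mice was sequenced, in 3 groups of 3. The groups are WT with the treatment NC, WT with CCl4 and KO with CCl4, where WT was read as the Tgfbr2f/f (floxed) mice and KO as Tgfbr2HKO mice, so the controls carry the floxed receptor gene as well. CCl4 (carbon tetrachloride, a solvent that injures hepatocytes) was given into the peritoneum in olive oil at 0.25 ml/kg, 2 times a week for 4 weeks. What NC stands for, how the HKO animals were made, and whether the samples of a group are separate animals is stated by none of the sources used. KO animals without CCl4 are not among the groups here, so an effect of genotype alone and one that needs CCl4 cannot be told apart. The hour at which the livers were taken is not given either, and its part in any difference below was not tested.

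The libraries held 16447353 to 20373585 counts. Tgfbr2 stood at 30.2 to 38.6 CPM (counts scaled to a common library size) in WT NC and 75.2 to 126.6 CPM in WT CCl4. It was at 23.6 CPM in KO 72 and at 28.3 CPM in KO 79, but at 70.0 CPM in the library labelled KO 75, close to the 75.2 CPM of WT CCl4 13. On the first principal component of all genes (73.7% of the variance) KO 75 lay at 73.4, within the WT CCl4 range of 67.6 to 125.9, while KO 72 and KO 79 lay at -34.7 and -4.0. Results of the KO group are therefore also given without KO 75. The labels call the cells hepatocytes, and the summed level of 9 hepatocyte genes was 99070 to 119300 CPM in WT NC, 41310 to 70030 CPM in WT CCl4 and 78470 to 96810 CPM in KO CCl4. Markers of other liver cells were present as well, with 8 macrophage genes summing to 353.5 to 462.5, 2389 to 6332 and 515.9 to 3484 CPM in the same order. In bulk RNA, fewer cells of a type and less RNA per cell cannot be told apart.

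Promoter sequence is shown for the members in which the clock's own control letters lie close to a start of transcription, since these letters tie the members to each other. RefSeq (GRCm38.p6) had windows of 250 bases before and 50 bases from the start for 9 of the 10 members, 13 windows in all. They were searched on both strands for the E-box CACGTG, the variant E-box CACGTT, the D-box TTANNTAA (bound by DBP, TEF, HLF and NFIL3) and the core of the REV-ERB and ROR element, TAGGTCA or TGGGTCA. Of 32851 windows of that length over all genes, 7.15% held the first, 4.68% the second, 6.0% the third and 6.45% the last. Of the 13 member windows, 6 held at least 1. The share of all windows that hold at least 1 was not taken, so this count has no matching background. Capitals mark the match, each stretch reads 5′ to 3′ on the gene's own strand, and AACGTG is CACGTT on the other strand. Stretches other than that of Arntl lie before the annotated start of their own window. That of Per1 lies within the deposited span of the gene (69095217 to 69109960), so it precedes a start inside the gene.
Arntl, chr7:113207531-113207560, plus strand: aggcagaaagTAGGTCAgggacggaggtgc
Cry1, chr10:85185079-85185163, minus strand: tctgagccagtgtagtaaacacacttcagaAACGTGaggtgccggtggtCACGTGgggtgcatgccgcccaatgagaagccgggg
Cry2, chr2:92434200-92434265, minus strand: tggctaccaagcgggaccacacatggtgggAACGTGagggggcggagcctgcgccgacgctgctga
Per1, chr11:69098753-69098818, plus strand: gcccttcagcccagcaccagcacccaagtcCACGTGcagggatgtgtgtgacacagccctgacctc
Per3, chr4:151044786-151044900, minus strand: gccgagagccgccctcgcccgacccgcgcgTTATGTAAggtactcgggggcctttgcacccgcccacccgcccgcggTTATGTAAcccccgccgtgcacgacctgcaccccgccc
Nr1d1, chr11:98775378-98775435, minus strand: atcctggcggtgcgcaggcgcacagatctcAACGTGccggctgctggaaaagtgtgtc
The Arntl match begins at base 31 from the second of its annotated starts, over annotated exons. Clock, Npas2 and Nr1d2 had none of these letters in their windows, which says nothing of sites elsewhere. A match is a description of the sequence and was not measured as a bound site.

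Arntl and Clock were low and the REV-ERB receptors high in WT NC, and the reverse held in the libraries labelled KO. The means of WT CCl4 lay between those of the other groups for Arntl, Clock, Nr1d1 and Nr1d2. The activator Npas2 was higher in KO CCl4 than in WT but stayed low there, below Nr1d2. On FPKM, which divides by gene length so that genes can be set side by side, the mean levels in WT NC ran from Nr1d1 (24.6) and Nr1d2 (21.8) through Cry2 (6.27), Per2 (5.31), Per1 (5.25), Per3 (2.84), Cry1 (1.97) and Clock (1.18) down to Arntl (0.289) and Npas2 (0.0206). In KO CCl4 the order began with Cry1 (9.80), Arntl (7.39) and Per2 (6.10), went on with Clock (3.67), Cry2 (3.04), Nr1d2 (2.25) and Per1 (2.23), and ended with Per3 (0.490), Npas2 (0.434) and Nr1d1 (0.420). Nr1d1 thus moved from the first place to the last, and Arntl from the ninth place to the second. In WT CCl4 Nr1d2 (12.5) and Nr1d1 (9.90) still stood first and Npas2 last, and Arntl was at 2.03. Neighbours in these orders often overlapped over libraries. In WT NC Nr1d1 (15.4 to 32.5 FPKM) overlapped Nr1d2 (20.4 to 22.6), and Per2 (3.01 to 9.03) overlapped Cry2, Per1 and Per3, while Arntl (0.188 to 0.451) was apart from its neighbours. In KO CCl4 Cry1 (7.90 to 10.8) overlapped Arntl (6.88 to 7.95), and Npas2, Per3 and Nr1d1 overlapped each other.

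Under CCl4, 5 of the 10 members passed the threshold between KO and WT in edgeR's quasi-likelihood test (adjusted p below 0.05 over all genes), where 5.07% of all genes did. Of these, 3 were higher in the libraries labelled KO (Arntl, Clock and Cry1), against 3.46% of all genes, and 2 were lower (Nr1d1 and Nr1d2), against 1.61%. Levels were fully separated between the groups in 7 members, Npas2 among them, against 31.7% of all genes. Without KO 75, 8 members passed, against 37.7% of all genes, with Npas2 and Cry2 added as higher and Per1 as lower. The count was 3 without any 1 of the WT NC libraries, 2 without WT CCl4 11 and 1 (Nr1d2) without WT CCl4 12, KO 72 or KO 79. A fit of only the 6 libraries compared lost the calls of Clock, Cry1 and Nr1d1. With limma on FPKM, Clock was lost with either pseudocount and Cry1 with that of 0.1. DESeq2 added Npas2 and Per3, and edgeR with no filter on low counts added Npas2. The median size of the 10 log2 fold changes, Npas2 included, was 1.21, against 0.447 over all genes tested. The list was drawn up with earlier fold changes of these libraries in view, so these medians are description only.

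For CCl4 against NC in WT, 7 members passed, against 54.4% of all genes, a share near that background. The 3 higher ones were Arntl, Clock and Cry1 (29.5% of all genes were higher) and the 4 lower ones Cry2, Per3, Nr1d1 and Nr1d2 (25% were lower). Groups did not overlap in 7 members and in 66.3% of all genes, and the median size of the log2 fold change was 1.09 in the members and 0.797 overall. Between KO with CCl4 and WT with NC, 9 members passed, all except Per2, against 23% of all genes. Higher were 4 (Arntl, Clock, Npas2 and Cry1, against 14%) and lower 5 (Cry2, Per1, Per3, Nr1d1 and Nr1d2, against 8.98%). The median size was 2.41, Npas2 included, against 0.485. Because of how the list was drawn up, the medians of both comparisons are description only. Groups did not overlap in 9 members, Npas2 among them, against 44.7% of all genes. Without KO 75 the count of members called was also 9, against 17.3%. It was 7 without WT NC 1 or WT NC 3 and 6 without WT NC 2 or KO 79. The 3 comparisons share groups of libraries with each other, so they are not independent of each other.

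**Figure D1:**
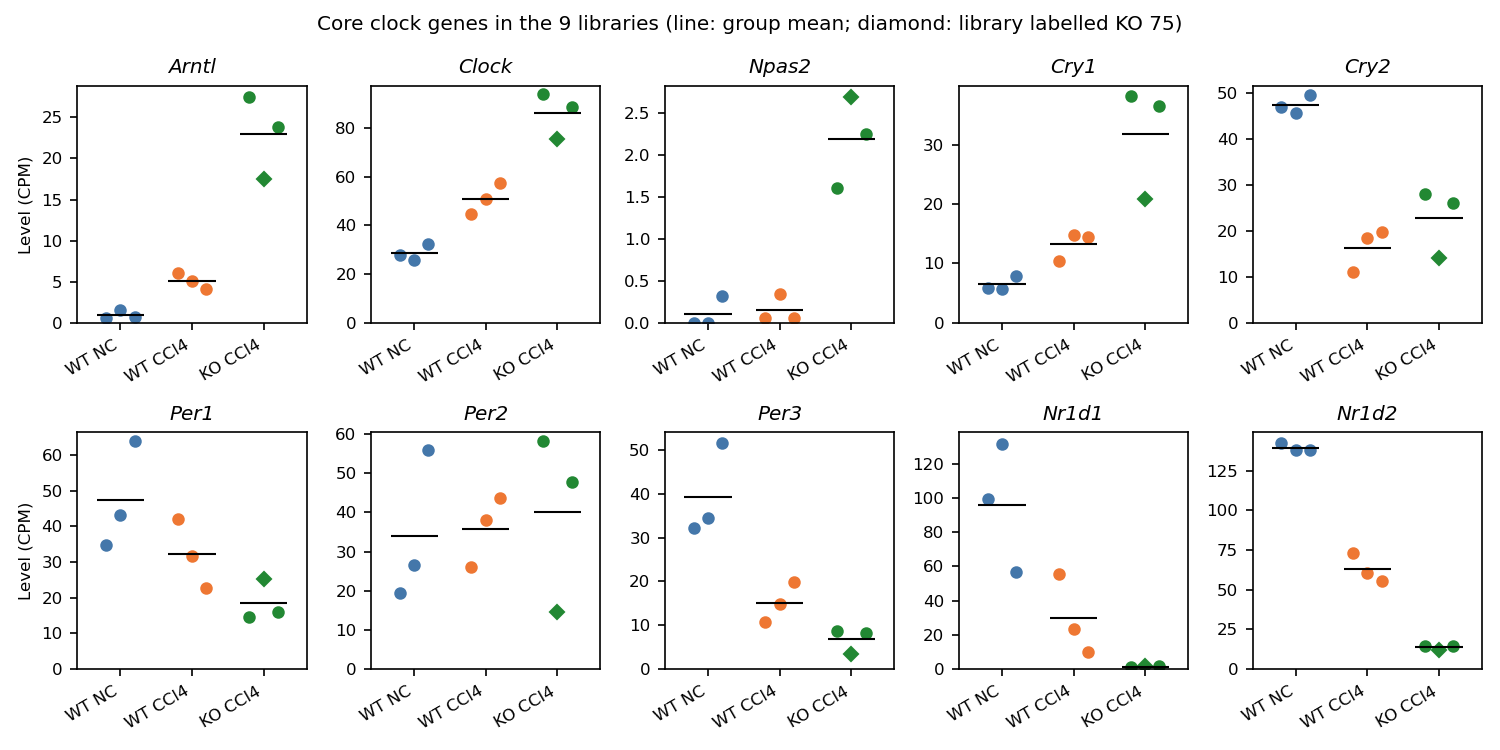
Each panel shows 1 core clock gene, with the level in CPM on the vertical axis and 1 point for each of the 9 libraries. The black line is the group mean and the diamond is the library labelled KO 75. Arntl stands at 17.5 CPM or more in the KO libraries and at 1.52 CPM or less in WT NC, while Nr1d1 stands at 1.82 CPM or less in the KO libraries.

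Arntl (chromosome 7, 113207465 to 113314122, plus strand, mm10) encodes the activator without which the loop stops in mice. It stood at 0.598, 1.52 and 0.693 CPM in WT NC 1, 2 and 3, at 6.07, 5.04 and 4.16 CPM in WT CCl4 11, 12 and 13, and at 27.5, 17.5 and 23.9 CPM in KO 72, 75 and 79. The WT NC values came from only 9, 22 and 13 counts. The 3 groups were fully apart, and KO 75 stood with the other KO libraries rather than with WT CCl4. Arntl rose by 2.45 ± 0.36 (SE) on the log2 scale with CCl4 in WT (edgeR adjusted p = 0.00117). It was higher by a further 2.17 ± 0.32 in KO against WT under CCl4 (edgeR adjusted p = 0.0199), a 4.50-fold difference, and by 2.34 without KO 75. The latter call was lost without WT CCl4 11, WT CCl4 12, KO 72 or KO 79, with log2 fold changes of 2.02 to 2.34 over the 9 fits that each leave out 1 library. An antisense gene, Gm45355, shares exon sequence with Arntl within a span of 2394 bases and is not in the deposited table. Its part in the Arntl counts was not tested.

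Clock (chromosome 5, 76209868 to 76304792, minus strand) encodes the usual partner of ARNTL. It stood at 28.0, 26.0 and 32.4 CPM in WT NC, at 44.5, 50.8 and 57.6 CPM in WT CCl4, and at 94.0, 75.8 and 88.9 CPM in KO 72, 75 and 79. No library of any group overlapped another group. The differences were smaller than those of Arntl, at 0.82 ± 0.16 for CCl4 against NC and 0.76 ± 0.16 for KO against WT under CCl4 (edgeR adjusted p = 0.00284 and 0.0417). The call between KO and WT held in 2 of the 9 fits without 1 library, those without KO 75 (0.85) or WT CCl4 13, and was lost without any of the other 7, at 0.67 at the lowest.

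Npas2 (chromosome 1, 39193731 to 39363236, plus strand), which can stand in for Clock in the pair, was barely detected outside the KO group. It had 0, 0 and 6 counts in WT NC, 1, 7 and 1 in WT CCl4, and 27, 57 and 41 in KO 72, 75 and 79. All 3 KO libraries lay above the 6 others, and KO 75 was the highest. The log2 fold change of KO against WT under CCl4 was 3.79 ± 0.96, which did not pass edgeR's test (adjusted p = 0.0536). It passed without KO 75 (3.62), with DESeq2, and in edgeR with no filter on low counts. Against WT NC the log2 fold change was 4.13 ± 1.02 (edgeR adjusted p = 0.0220), a call lost without WT NC 1, WT NC 2 or KO 79. With so few counts in the WT groups, the size of these folds is poorly fixed. Npas2 passed the filter through the KO libraries alone, so these calls give no support for a difference.

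Cry1 and Cry2 encode the cryptochromes, close relatives that repress the ARNTL pair and that peak at different times of day in mouse liver. Cry1 (chromosome 10, 85131702 to 85185054, minus strand) stood at 5.91, 5.72 and 7.84 CPM in WT NC, at 10.5, 14.9 and 14.5 CPM in WT CCl4, and at 38.3, 20.8 and 36.6 CPM in KO 72, 75 and 79. The groups did not overlap, with KO 75 the KO library closest to WT CCl4. Cry1 rose by 1.03 ± 0.27 with CCl4 in WT (edgeR adjusted p = 0.0108) and was higher by 1.26 ± 0.26 in KO against WT under CCl4 (edgeR adjusted p = 0.0417). The second call was lost without any 1 library except KO 75, without which it was 1.497, and ranged down to 1.11.

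Cry2 (chromosome 2, 92403646 to 92434043, minus strand) moved the other way from Cry1 with CCl4. It stood at 46.9, 45.8 and 49.7 CPM in WT NC, at 11.1, 18.4 and 19.7 CPM in WT CCl4, and at 28.1, 14.2 and 26.0 CPM in KO 72, 75 and 79. WT NC stood above all other libraries, while KO 75 lay within the WT CCl4 range. Cry2 fell by 1.53 on the log2 scale (SE 0.29) with CCl4 in WT, at an edgeR adjusted p of 0.00261. Between KO and WT under CCl4 the log2 fold change was 0.47 ± 0.28 (edgeR adjusted p = 0.270), and it passed without KO 75 (0.73). From WT NC to KO CCl4 the difference was -1.06 ± 0.29 (edgeR adjusted p = 0.0295), a call lost without any 1 of the WT NC libraries or without KO 79. An antisense transcript, D930015M05Rik, shares exon sequence with Cry2 and had 0, 4 and 4 counts over the 3 libraries of WT NC, WT CCl4 and KO CCl4.

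The Per genes encode the partners of the cryptochromes in the repressing complex, and the 3 differed from each other. Per1 (chromosome 11, 69095217 to 69109960, plus strand), which hormones and feeding cues can also induce directly, stood at 34.9, 43.2 and 63.8 CPM in WT NC, at 42.0, 31.6 and 22.9 CPM in WT CCl4, and at 14.6, 25.1 and 16.1 CPM in KO 72, 75 and 79. WT NC and WT CCl4 overlapped, and so did KO 75 and WT CCl4. Neither CCl4 against NC (-0.56 ± 0.31, edgeR adjusted p = 0.153) nor KO against WT under CCl4 (-0.79 ± 0.31, edgeR adjusted p = 0.126) passed. The latter passed without KO 75, at -1.06. Per1 was lower in KO CCl4 than in WT NC by -1.34 ± 0.31 (edgeR adjusted p = 0.0186), a call lost without WT NC 2, WT NC 3 or KO 79.

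Per2 (chromosome 1, 91415982 to 91459324, minus strand), which is required for a stable rhythm in mice, was the member in which the spread within groups was widest against the difference between them. It stood at 19.4, 26.6 and 55.9 CPM in WT NC, at 26.1, 38.0 and 43.5 CPM in WT CCl4, and at 58.2, 14.5 and 47.8 CPM in KO 72, 75 and 79. The groups overlapped fully, and KO 75 was the lowest of all 9 libraries while KO 72 was the highest. Its log2 fold changes were 0.08 ± 0.52, 0.16 ± 0.52 and 0.24 ± 0.52 in the 3 comparisons, in the order CCl4 against NC, KO against WT and KO CCl4 against WT NC. None passed edgeR's test (adjusted p = 0.909, 0.844 and 0.765), with or without KO 75.

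Per3 (chromosome 4, 151003652 to 151044665, minus strand), a member the rhythm can do without in mice, stood at 32.1, 34.4 and 51.6 CPM in WT NC, at 10.8, 14.8 and 19.8 CPM in WT CCl4, and at 8.70, 3.54 and 8.19 CPM in KO 72, 75 and 79. The 3 groups did not overlap, and KO 75 was the lowest library. Per3 fell by 1.38 on the log2 scale (SE 0.36) with CCl4 in WT (edgeR adjusted p = 0.0109). Between KO and WT under CCl4 it differed by -1.15 ± 0.37, which did not pass (edgeR adjusted p = 0.0791), nor did it without KO 75 (-0.84). From WT NC to KO CCl4 the difference was -2.53 ± 0.38 (edgeR adjusted p = 0.00398). Camta1 spans the whole of Per3 on the same strand without sharing exon sequence, and it had 191, 151 and 106 counts over the 3 libraries of each group in the same order.

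Nr1d1 (chromosome 11, 98767932 to 98775333, minus strand) encodes REV-ERB alpha, the repressor of Arntl, and among the members it differed most in fold in both comparisons of KO CCl4 with WT, while Arntl did for CCl4 against NC. It stood at 99.4, 131.7 and 56.5 CPM in WT NC, at 55.6, 23.5 and 10.3 CPM in WT CCl4, and at 1.01, 1.70 and 1.82 CPM in KO 72, 75 and 79. The KO libraries, KO 75 among them, were far below all others with 17, 36 and 33 counts, while WT CCl4 11 came within 1 CPM of WT NC 3. In KO against WT under CCl4 Nr1d1 was lower by -4.29 ± 0.64 (edgeR adjusted p = 0.0199), a 19.6-fold difference and -4.38 without KO 75. That call was lost without WT CCl4 12, KO 72 or KO 79, with log2 fold changes of -4.70 to -3.47 over the 9 fits. With CCl4 in WT it fell by 1.69 on the log2 scale (SE 0.55, edgeR adjusted p = 0.0270), a call lost without WT NC 1, WT NC 2 or WT CCl4 12.

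Within WT CCl4, several sums of marker genes ran in the order of Nr1d1 or against it over the 3 libraries. The library with the most Nr1d1, WT CCl4 11, had the lowest summed hepatocyte markers (41310 CPM) and the highest macrophage markers (6332 CPM), and WT CCl4 13 with the least Nr1d1 had 70030 and 2389 CPM. Stellate cell markers summed to 1944, 1346 and 1063 CPM and exocrine pancreas genes, which are not of the liver, to 897.8, 282.8 and 7.79 CPM in WT CCl4 11, 12 and 13, also in the order of Nr1d1. Pancreas genes summed to 0 to 2.51 CPM in WT NC and 19.4 to 134.4 CPM in KO CCl4. Markers of dividing cells ran against that order, at 349.7, 416.1 and 461.7 CPM in WT CCl4 11, 12 and 13. The order was not particular to Nr1d1. The first principal component (125.9, 94.9 and 67.6) and Arntl (6.07, 5.04 and 4.16 CPM) followed it too, while Clock (44.5, 50.8 and 57.6 CPM) ran against it. The part of these markers in the result was not tested. Within the KO group the macrophage sum was 515.9, 3484 and 1091 CPM in KO 72, 75 and 79. Nr1d1 was at 1.01, 1.70 and 1.82 CPM there, but at 0.243, 0.554 and 0.463 FPKM, from 17, 36 and 33 counts. Whether KO 75 or KO 79 held the most Nr1d1 thus depended on the measure, and their counts were close. The 3′ end of Nr1d1 overlaps exons of Thra, a thyroid hormone receptor gene on the other strand, over 1075 bases, and the use of strand in counting is not given. Thra stood at 8.11 to 9.17 CPM in WT NC, 8.21 to 15.6 CPM in WT CCl4 and 9.62 to 10.6 CPM in KO CCl4, and its log2 fold change of KO against WT was -0.17 ± 0.24 (edgeR adjusted p = 0.640).

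Nr1d2 (chromosome 14, 18204054 to 18239127, minus strand) encodes REV-ERB beta, which shares the repressing role, and it varied little within groups, with coefficients of variation of 1.89% in WT NC, 14.3% in WT CCl4 and 11.2% in KO CCl4. It stood at 142.5, 137.8 and 138.0 CPM in WT NC, at 73.2, 60.8 and 55.5 CPM in WT CCl4, and at 14.8, 12.1 and 14.7 CPM in KO 72, 75 and 79. The 3 groups were widely apart, and KO 75 stood with KO 72 and KO 79. Nr1d2 fell by 1.14 on the log2 scale (SE 0.15) with CCl4 in WT (edgeR adjusted p = 0.000924). It was lower by -2.19 ± 0.16 in KO against WT under CCl4, or 4.56-fold (edgeR adjusted p = 0.000945), and by -2.09 without KO 75. It kept this call in all 9 fits without 1 library, and by p it ranked 2 among the 14134 genes tested in that comparison.

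**Figure D2:**
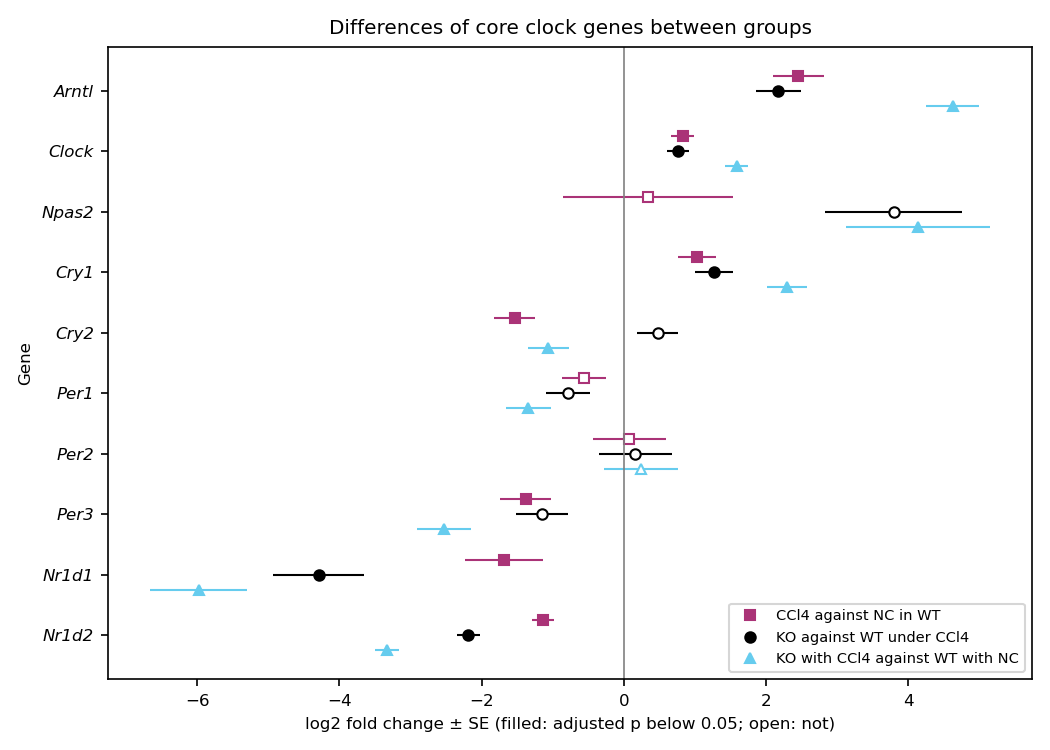
The horizontal axis gives the log2 fold change and the vertical axis the 10 genes, with 1 mark for each of 3 comparisons and a bar of 1 standard error to either side. Filled marks passed an adjusted p of 0.05 in edgeR's test and open marks did not. Nr1d1 lies farthest to the left (-5.98 for KO CCl4 against WT NC) and Arntl farthest to the right (4.62), while Per2 lies within 1 standard error of 0.

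Arntl and Nr1d1 peak at opposite times of day in mouse liver, so the difference of their log2 levels (FPKM plus 0.1) was taken in each library. Arntl minus Nr1d1 was -6.50, -5.89 and -5.56 in WT NC 1, 2 and 3 and -2.87, -1.90 and -0.997 in WT CCl4 11, 12 and 13. It was positive only in the libraries labelled KO, at 4.55, 3.42 and 3.72 in KO 72, 75 and 79. The group means were -5.98 ± 0.48, -1.92 ± 0.94 and 3.90 ± 0.59 (SD, n = 3 each). On this measure KO 75 stood with KO 72 and KO 79, although it lay within the WT CCl4 range on the first principal component and its Tgfbr2 level was closer to that group than to KO 72 and KO 79.

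**Figure D3:**
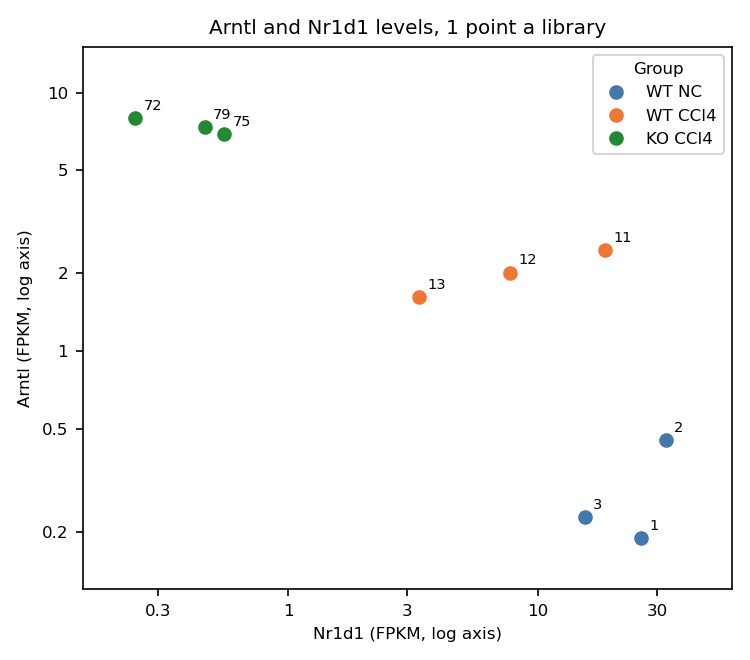
Each point is 1 library, numbered as in the labels, with Nr1d1 on the horizontal and Arntl on the vertical axis, both in FPKM on log axes. The KO libraries lie at the upper left (Nr1d1 at 0.554 FPKM or less, Arntl at 6.88 or more), WT NC at the lower right, and WT CCl4 between them on Arntl. On Nr1d1 WT CCl4 11 (18.6 FPKM) lies to the right of WT NC 3 (15.4 FPKM).

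The members also differed in how KO 75 related to its group. For Arntl, Clock, Npas2, Cry1, Per3, Nr1d1 and Nr1d2 it lay beyond the WT CCl4 range on the same side as KO 72 and KO 79. In Cry2 and Per1 it lay inside the WT CCl4 range, at 14.2 and 25.1 CPM. In Per2 it was the lowest library, at 14.5 CPM against 58.2 and 47.8 CPM in KO 72 and KO 79, and KO 72 and KO 79 were above the WT CCl4 range. The coefficient of variation within the KO group ran from 10.9% in Clock to 56.9% in Per2.

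Further clock genes were read from lists that were also drawn up with earlier results known. Among 12 loop partners and output factors, 11 were tested. With CCl4 in WT 1 rose and 5 fell, a share near the 54.4% of all genes called there. In KO against WT under CCl4 none was higher and 2 were lower (5.07% of all genes were called), or 2 and 4 without KO 75 (37.7%). In KO CCl4 against WT NC none was higher and 4 were lower (23%). Dbp, the output factor that binds D-boxes such as those shown in Per3, was 1 of the 2. It stood at 141.7, 147.1 and 118.8 CPM in WT NC, at 24.1, 19.2 and 14.7 CPM in WT CCl4, and at 2.15, 1.93 and 2.91 CPM in KO 72, 75 and 79. Its groups were fully apart, and the difference of KO against WT under CCl4 was -3.05 ± 0.24 (edgeR adjusted p = 0.00133), and -2.93 without KO 75. That call held in all 9 fits without 1 library.

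Bhlhe41, which encodes the E-box repressor DEC2, was the other, at 9.92, 4.74 and 3.79 CPM in WT CCl4 and at 1.55, 0.566 and 1.93 CPM in KO 72, 75 and 79. Its difference of -2.20 ± 0.51 (edgeR adjusted p = 0.0475) held in 2 of the 9 fits, those without KO 75 (-1.82) or WT CCl4 13, and was lost in the others. Ciart, another repressor of the ARNTL pair, differed by -0.91 ± 0.23 (edgeR adjusted p = 0.0536), and passed without KO 75 at -0.79.

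In WT with CCl4 the 5 that fell were Dbp (-2.81), Ciart (-2.39), Tef (-1.58), Hlf (-1.30) and Rora (-0.80), and the 1 that rose was Timeless (2.35), which in mammals also serves the replication fork. Their edgeR adjusted p lay between 0.000178 (Dbp) and 0.0218 (Hlf), and Hlf lost its call without WT NC 3 or WT CCl4 11. Rora lost its call with limma on log2(FPKM + 1) and on log2(FPKM + 0.1), at -0.37 and -0.45 (limma adjusted p = 0.0502 in each). Marker genes of dividing cells moved with Timeless, at a summed 7.51 to 9.71 CPM in WT NC, 350 to 462 CPM in WT CCl4 and 59.2 to 386 CPM in KO CCl4, and their part in its rise was not tested. In KO CCl4 against WT NC the 4 lower genes were Dbp (-5.86), Ciart (-3.30), Bhlhe41 (-2.80) and Tef (-2.13).

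**Figure D4:**
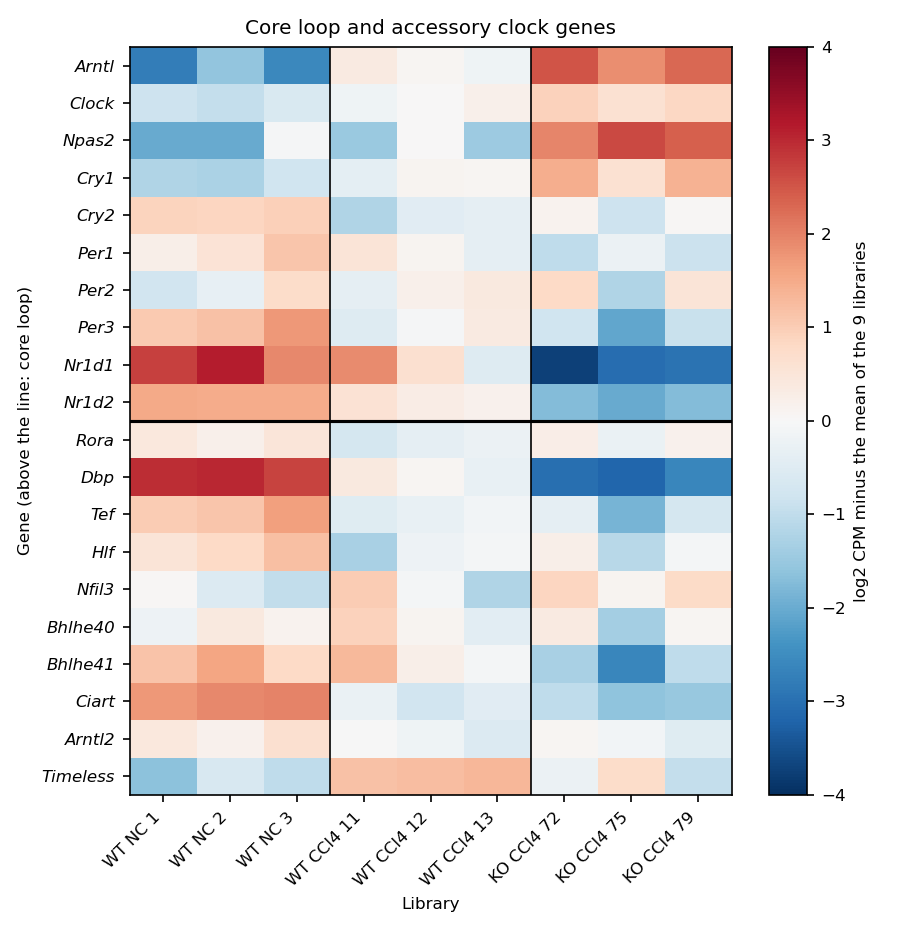
Colour gives log2 CPM minus the mean of the 9 libraries for the 10 core genes (above the line) and 10 of the accessory genes tested (below), with 1 column for each library. Red is above and blue below the gene's mean. Nr1d1, Nr1d2, Dbp and Ciart run from red in WT NC to blue in the KO libraries, and Arntl, Clock and Cry1 run the other way.

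The genes whose profile over the 9 libraries was most like that of Arntl and of Nr1d1 were taken by the smallest root-mean-square difference of centred log2 CPM, among 10269 other genes with a mean of at least 5 CPM. For Nr1d1 they were Dbp (0.66), Serpina1e (1.21), Clec2h (1.21), Nr1d2 (1.22) and Bhlhe41 (1.37), where the median gene stood at 2.56. For Arntl they were Acnat2 (0.59), Ntrk2 (0.61), Tubb2a (0.67) and Orm2 (0.73), where the median gene stood at 1.94. Of the 5 genes nearest to Nr1d1, 3 are clock genes named above, and none of the 4 given for Arntl is. The clock lists were drawn up with earlier results known, and their share among the 10269 genes was not taken. All genes share these libraries and the groups they form, so likeness here is a description.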

How the data were processed

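The authors deposited 1 table with whole-number counts and FPKM per gene, per the file headers. Reads were processed with HISAT2 2.0.4 and StringTie 1.3.0 per the submitters' processing notes, which name mm10 and GRCm38.p4. The counting tool, its strand setting and its handling of shared reads are stated by none of the sources used. The authors' FPKM divides by each library's total, of which mitochondrial genes took 9.13% to 12.1% in WT NC, 25.4% to 26.3% in WT CCl4 and 19.3% to 21.0% in KO CCl4.

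Counts were tested with edgeR 4.0.16 in R 4.3.3 (TMM, filterByExpr, quasi-likelihood fit with 1 mean per group on the 9 libraries, Benjamini-Hochberg adjustment over 14134 genes, threshold 0.05). SE is the log2 fold change divided by the square root of F, and log2 CPM used a prior count of 2. Samples were grouped by title. Chi-square per degree of freedom between replicates of a group was 13.8 to 186.4, so no 2 of them agreed within sampling noise. P-values reflect only the spread among these samples, which may be technical. A floor of 3 counts is 0.147 to 0.182 CPM, for counting error only.

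The members, the lists and the rule for naming genes (all members, called genes of the accessory and kinase lists, the 3 called clock-controlled genes of smallest p, and the 5 nearest profiles, of which 4 are given for Arntl) were chosen with earlier results of these data known. Alternatives were DESeq2 1.42.0, its size factors, no filter, only the 6 libraries compared, limma 3.58.1 on log2(FPKM + 1) and log2(FPKM + 0.1) keeping genes that reach 1 FPKM in 3 libraries, no mitochondrial genes, and each library left out. The edgeR step was tested on simulated data. Positions of genes are the deposited ones, and overlaps come from GENCODE M21. Some genes that the naming rule or the lists hold are not reported here by name.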

Additional observations from a re-analysis of the deposited data

How the results depend on the processing

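For KO against WT under CCl4, 717 genes (489 higher, 228 lower) passed in edgeR. The count was 2766 with DESeq2, 30 in a fit of only the 6 libraries compared and 371 (219 higher, 152 lower) with limma on log2(FPKM + 0.1), and it was 306 higher and 395 lower on log2(FPKM + 1). The count of members called there was 5, 2 in the fit of the 6 libraries (Arntl and Nr1d2) and 3 with limma on log2(FPKM + 0.1). Leaving out 1 library gave 5 to 5453 genes and 1 to 8 members, with the lowest count of genes without WT CCl4 12 and the highest without KO 75, and only the fit without WT CCl4 13 (760) stayed within 1.5 times. For KO with CCl4 against WT with NC, 3247 genes passed, 1711 with limma on log2(FPKM + 1) and 1264 to 3679 with 1 library left out. For CCl4 against NC in WT the counts stayed within 1.5 times of 7693, but the split of 4166 higher and 3527 lower became 3844 and 2054 with limma on log2(FPKM + 1). The median log2 fold change of all genes was 0.04 and -0.03 in edgeR for CCl4 against NC and KO against WT, and 0.27 and -0.24 with limma on log2(FPKM + 0.1). The cause of these shifts was not tested. With log2(FPKM + 1), Arntl minus Nr1d1 was -4.50, -4.53 and -3.74 in WT NC 1, 2 and 3 and 2.85, 2.34 and 2.51 in KO 72, 75 and 79, where the larger pseudocount compresses low levels. No called fold change of a member changed sign in any alternative. Of the members' fold changes, 28 were no longer called and 6 newly called over all alternatives for KO against WT, 3 and 0 for CCl4 against NC, and 11 and 0 for KO CCl4 against WT NC. No paired analysis was possible because the groups share no replicate numbers. Depth limits Npas2, whose WT libraries held 0 to 7 counts, and the clock-controlled gene Elovl3 below, at 3 to 10 counts in WT CCl4. It also limits Arntl, at 9, 22 and 13 counts in WT NC 1, 2 and 3. Over 7 alternative fits of all libraries compared, Arntl was called each time. Its log2 fold change there was 1.23 to 2.49 for CCl4 against NC and 2.71 to 4.64 for KO CCl4 against WT NC.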

Other observations

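Of 12 clock-controlled metabolic genes of the liver, 2 rose and 8 fell with CCl4 in WT, where 54.4% of all genes were called. Among those that fell were Upp2, a uridine phosphorylase (-4.23 ± 0.40), Elovl3, a fatty acid elongase (-8.24 ± 1.04), and Gys2, the liver glycogen synthase (-2.83 ± 0.44), at edgeR adjusted p of 0.000344 to 0.00139. Elovl3 had only 8, 3 and 10 counts in WT CCl4 11, 12 and 13, so the size of its folds against that group is poorly fixed. Between KO and WT under CCl4, 3 were higher and none was lower (5.07% of all genes were called), or 8 and 1 without KO 75 (37.7%). The 3 were Alas1, the first enzyme of haem synthesis (1.28 ± 0.24), the vasopressin receptor gene Avpr1a (2.02 ± 0.39) and Elovl3 (4.34 ± 0.97), at edgeR adjusted p of 0.0356 to 0.0464. Alas1 and Elovl3 kept the call in 1 of 9 fits without 1 library, that without KO 75, and Avpr1a in 2, those without KO 75 or WT CCl4 13. Alas1 was at 432 CPM on average in WT NC, 167 CPM in WT CCl4 and 404 CPM in KO CCl4. The KO libraries were uneven, with KO 75 at 262.4 CPM and KO 72 and KO 79 at 470.7 and 478.3 CPM. For Alas1, KO CCl4 differed from WT NC by -0.10 ± 0.24 (edgeR adjusted p = 0.792). Arntl, Nr1d1 and Nr1d2 stood farther from WT NC in KO CCl4 than in WT CCl4. Cry2 stood nearer, with means of 47.45, 16.38 and 22.76 CPM in WT NC, WT CCl4 and KO CCl4.

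Of 13 genes for kinases, ubiquitin ligases and other enzymes that modify clock proteins, 4 rose with CCl4 in WT, among them Csnk1e, the kinase CK1 epsilon that marks PER proteins for breakdown (1.70 ± 0.30, edgeR adjusted p = 0.00216), and 4 fell, a share near the 54.4% of all genes called. Between KO and WT under CCl4, 0 of the 13 passed in edgeR (5.07% of all genes did), 1 had an unadjusted p under 0.05, and 1 passed in DESeq2. Without KO 75, 1 of the 13 passed in edgeR (Csnk1e, lower), where 37.7% of all genes did.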
